A study of Mus musculus with 4 samples.

Results

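The proteasome subunit genes are the genes whose symbol in the deposited tables is Psma, Psmb, Psmc or Psmd followed by a number. They number 39 of the 24411 genes listed. Their transcripts were measured by RNA-seq in morulae of the ICR mouse, an outbred stock, produced by in vitro fertilization. The siPwp1 group received siRNA against Pwp1 and the siControl group a control siRNA, by electroporation at 3 hpi, when the embryo is a single cell. Both groups grew in KSOM with bovine serum albumin to 72 hpi, and each of the 2 libraries per group was made from 10 pooled morulae. An siRNA lowers a transcript without removing the gene, and nothing in the labels ties a replicate to a culture of its own. The p-values therefore speak of the spread between libraries, which may be technical.

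Expected counts summed to 28981358 to 48765229 per library, and genes with a count above 0 numbered 15149 to 15976. Pwp1 itself stood at 16.1 and 16.9 TPM in the siPwp1 libraries, against 91.4 and 167 TPM in the siControl libraries. This is a log2 fold change of -2.97 (SE 0.333, siPwp1 over siControl), for which edgeR gave an adjusted p = 0.22 and DESeq2 an adjusted p = 1.47e-12. The 8 lineage markers of the morula and early blastocyst summed to 246 and 282 TPM in siPwp1, against 443 and 304 TPM in siControl, so the groups did not overlap. Each averaged above 1 TPM, Sox2 only through siControl replicate 1, which at 3.66 TPM stood above 0.34 and 0.11 TPM in siPwp1 and 0.1 TPM in siControl replicate 2. That library also had the highest Cdx2 (8.04 TPM) and Gata3 (42.1 TPM). Nanog was the largest part of each sum, at 111 and 155 TPM in siPwp1 and 230 and 165 TPM in siControl. Taken singly, Nanog and Pou5f1 had both siPwp1 libraries below in TPM, beside 13.7% of all genes. The groups overlapped for each of the remaining markers. The part of these differences in the levels of the proteasome genes was not tested. Markers of cumulus and granulosa cells summed to 0.03 to 0.15 TPM in siPwp1 and 0.1 to 0.13 TPM in siControl. Whole embryos were measured, so fewer cells and less RNA per cell cannot be told apart.

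The proteasome is the protease that breaks down proteins tagged with ubiquitin. Its barrel, the 20S core, is built of alpha rings, which form the gate, and beta rings, which carry the protease sites. A 19S particle caps the core: its ATPases unfold the substrate and thread it in, and its non-ATPase subunits bind ubiquitin and cut it off. Some cells swap the active beta subunits for immune versions, and the male germ line uses its own alpha subunit. In the mouse, the early embryo is known to use this route to clear proteins stored in the egg.

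Transcripts of the constitutive subunits were among the most abundant of the morula, and the members together took 2.20% and 2.03% of all TPM in siPwp1, against 2.24% and 2.21% in siControl. TPM is scaled for transcript length, so levels of different genes can be set side by side on it. By mean TPM over the 4 libraries, the alpha ring genes ranked between 114 and 248 among all genes and the beta ring genes between 154 and 376. The 19S ATPase genes ranked between 300 and 1165, and the non-ATPase genes between 344 and 2145. Immune and thymus subunits ranked from 3295 to 13185. Across the 31 constitutive subunits of core and cap, the order of the levels was much the same in every library, with Spearman correlations between libraries of 0.946 to 0.988, each point being a gene. Shorter transcripts stood higher in TPM over these 31 genes (Spearman -0.79, mean TPM against transcript length). The core genes are also the shorter ones, and the correlation was -0.25 within the 14 core genes and -0.42 within the 17 cap genes. The part of transcript length in these levels was not tested.

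**Figure D1:**
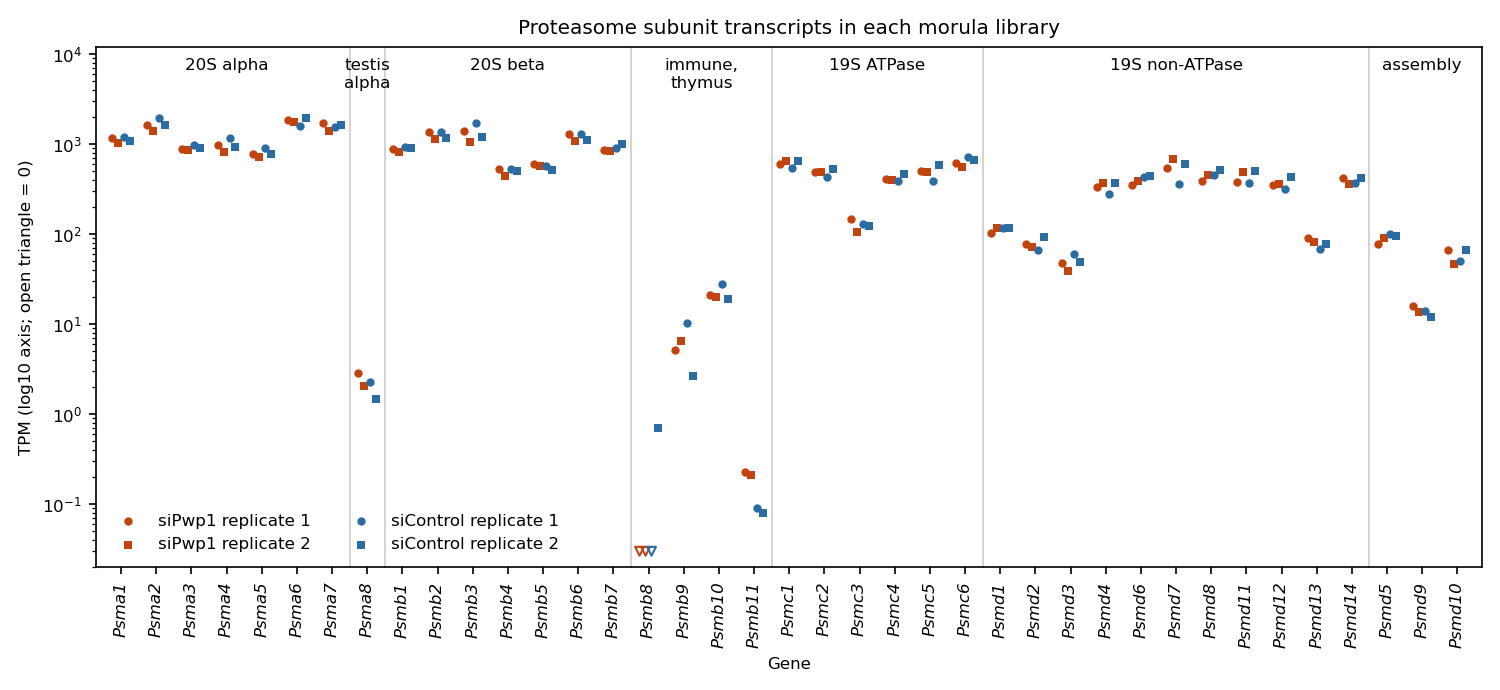
TPM of each of the 39 genes (log10 axis) in the 4 libraries, by class; circles are replicate 1, squares replicate 2, and open triangles mark a value of 0. Constitutive core genes lie between 441 and 1948 TPM, cap genes between 38.6 and 719.9 TPM, and the immune, thymus and testis genes at 27.6 TPM or less.

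No member changed by the test in siPwp1. With edgeR's quasi-likelihood test over 13585 genes, 0 of the 38 members tested were called higher or lower at an adjusted p under 0.05, and the share called among all genes was 0.0% in each direction. The adjusted p = 0.9998 for each member. At an unadjusted p under 0.05 there were 0 members, against 2.66% of all genes, and DESeq2 also called 0 members, against 0.324% of all genes. The remaining member, Psmb8, had too few counts to be tested.

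The median log2 fold change was -0.08 over the 38 members and -0.001 over all genes tested. Of the members, 27 lay below 0 and 11 above it, beside 6803 and 6782 of all 13585 genes. The members' median was -0.18 without siPwp1 replicate 1 and 0.016 without siPwp1 replicate 2, so its sign rests on single libraries. All but 1 member had an absolute log2 fold change under 0.5, the exception being Psmb11. For 31 of the 38 (81.6%) the 95% interval of the fold change lay within 2-fold in either direction, against 25.8% of all genes tested. Depth goes with this: the median level of the members was 502 CPM and that of all genes 9.99 CPM, and its part in the narrow intervals was not tested. Changes within these intervals were not detectable with 2 libraries per group, and larger ones could go uncalled too. Pwp1 itself, at a log2 fold change of -2.97, had an adjusted p = 0.22 by edgeR. The lack of calls therefore does not show that the members were unchanged.

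Library by library, 5 members (13.2%) had both siPwp1 libraries below both siControl libraries in CPM, against 14.1% of all genes. Another 2 members (5.26%) had both siPwp1 libraries above, against 14.7% of all genes. Together these 7 members compare with 28.7% of all genes in either direction. In TPM, 8 members lay below, against 13.7% of all genes, and 3 above, against 14.8% of all genes, so which members count here depends on the unit. Differences between replicates set the scale: the median absolute log2 difference between replicates was 0.19 in siPwp1 and 0.27 in siControl over the members, and 0.45 and 0.54 over all genes. The median absolute log2 fold change between groups was 0.12 over the members and 0.30 over all genes.

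**Figure D2:**
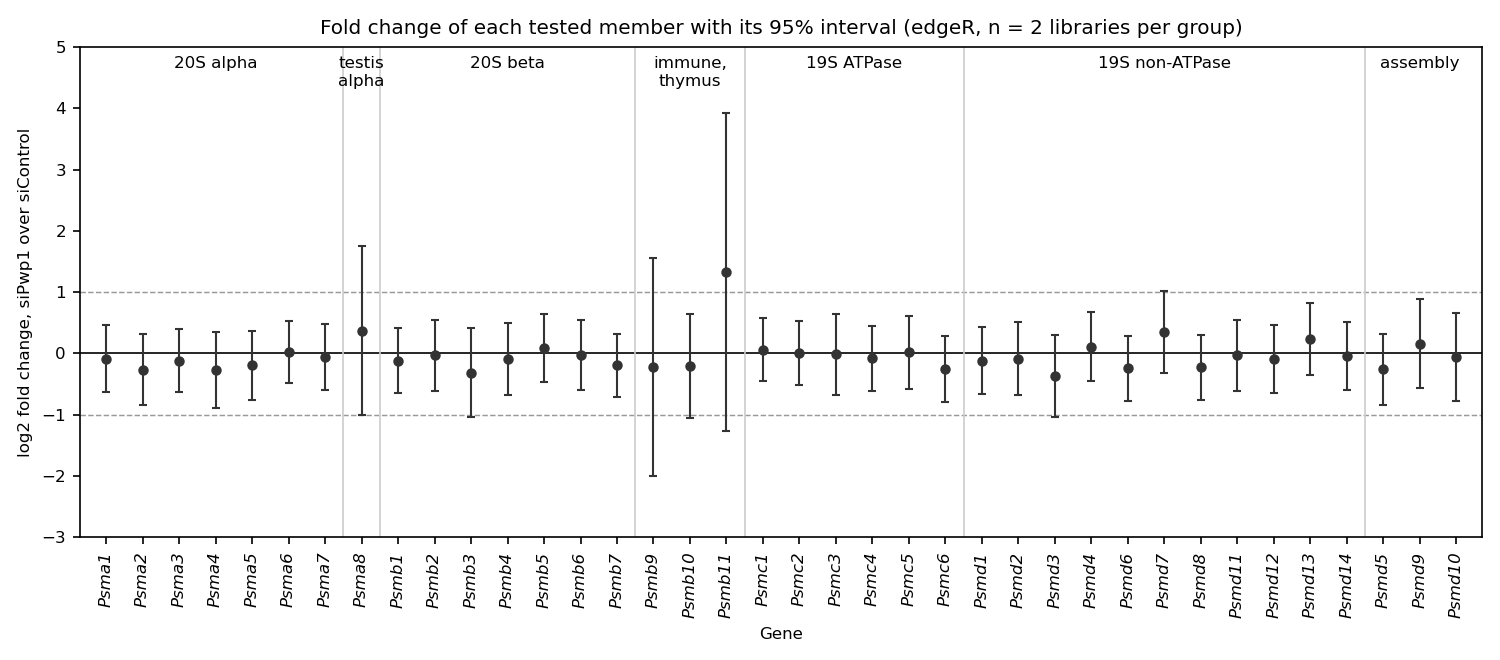
Log2 fold change of siPwp1 over siControl for the 38 members tested (edgeR), with 95% intervals and dashed lines at a 2-fold change. Every interval includes 0, and the widest belong to Psmb11, Psmb9 and Psma8, which stood below 11 TPM in each library.

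The alpha ring genes Psma1 to Psma7 averaged 1214 ± 96.4 TPM per gene in siPwp1 and 1303 ± 49.3 TPM in siControl (SD, n = 2 each). Their median log2 fold change was -0.12, with a range of -0.27 to 0.02, and 0 of 7 had groups that did not overlap in CPM. Psma6 stood at 1845 and 1781 TPM in siPwp1, against 1589 and 1928 TPM in siControl. It was the highest alpha gene in 3 libraries, and the siPwp1 values lay between the siControl ones. Psma2 led in the fourth library, and stood at 1616 and 1413 TPM in siPwp1 and 1948 and 1616 TPM in siControl. Its log2 fold change was -0.26 (SE 0.243, interval -0.84 to 0.31), with the siControl replicate 1 library above the rest. Psma5 was the lowest alpha gene in every library, at 779.9 and 718 TPM in siPwp1 and 911 and 772 TPM in siControl. Psma4 had the largest change of this ring, at 981 and 809 TPM in siPwp1 and 1185 and 934 TPM in siControl (log2 fold change -0.27, SE 0.262). Psma3 stood at 877 and 869 TPM in siPwp1, below 969 and 896 TPM in siControl, but overlapped in CPM. Psma1 and Psma7, also of the ring, had log2 fold changes of -0.09 and -0.06 with overlapping groups. From highest to lowest the ring spanned 2.37-fold and 2.48-fold in the siPwp1 libraries and 2.14-fold and 2.50-fold in the siControl libraries, although the assembled ring holds each subunit in equal number.

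The beta ring genes Psmb1 to Psmb7 averaged 922 ± 98.1 TPM per gene in siPwp1 and 979.9 ± 90.3 TPM in siControl (SD, n = 2 each). Over this ring log2 fold changes ran from -0.31 to 0.08, with a median of -0.10. Psmb3, a structural subunit, had the largest change of this ring, at 1390 and 1045 TPM in siPwp1 against 1739 and 1208 TPM in siControl. Replicate 1 lay above replicate 2 in both groups, and the groups overlapped (log2 fold change -0.31, SE 0.305). Psmb4, another structural subunit, was the lowest beta gene in every library, at 535 and 441 TPM in siPwp1 and 526 and 499.8 TPM in siControl.

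The structural subunit genes Psmb1 and Psmb2 had log2 fold changes of -0.12 and -0.03. Psmb1 stood at 886 and 822 TPM in siPwp1 and 928 and 895 TPM in siControl, and Psmb2 at 1368 and 1150 TPM in siPwp1 and 1353 and 1173 TPM in siControl. In TPM the siPwp1 libraries lay below both siControl libraries for Psmb1, and overlapped them for Psmb2.

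Among the protease subunits, Psmb5 carries the chymotrypsin-like site, Psmb6 the caspase-like site and Psmb7 the trypsin-like site. Psmb5 stood at 597 and 578 TPM in siPwp1, against 567 and 521 TPM in siControl. Its siPwp1 libraries lay above in TPM but overlapped siControl in CPM (log2 fold change 0.08, interval -0.47 to 0.64). Psmb6 stood at 1297 and 1094 TPM in siPwp1 and 1281 and 1114 TPM in siControl, the siPwp1 values enclosing the siControl ones. Psmb7 stood at 864.5 and 836 TPM in siPwp1, against 912.5 and 1002 TPM in siControl. Both siPwp1 libraries lay below for Psmb7, but the difference did not pass (log2 fold change -0.19, interval -0.71 to 0.32). Exons of Psmb7 overlap those of Nek6 on the other strand, and its share of such reads is uncertain because the strand setting is not given in the sources used here.

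The immune subunits take the places of these enzymes when interferon induces them: Psmb8 replaces Psmb5, Psmb9 replaces Psmb6 and Psmb10 replaces Psmb7. Together they made up 0.951% and 1.05% of the TPM of these enzyme genes in siPwp1, against 1.36% and 0.847% in siControl. The siPwp1 values lay between the siControl values. Psmb10 was the highest of the immune genes, at 21.3 and 19.9 TPM in siPwp1 and 27.6 and 19.2 TPM in siControl. Psmb9 stood at 5.15 and 6.56 TPM in siPwp1 and 10.4 and 2.67 TPM in siControl, so its siControl libraries differed more than the groups did (log2 fold change -0.23, SE 0.748). Psmb8 had 0 counts in both siPwp1 libraries and in siControl replicate 1, and 28 counts in siControl replicate 2. Exons of Psmb8 overlap those of Gm20496 on the other strand. A count of 0 allows up to 0.0594 and 0.0996 CPM in the siPwp1 libraries and 0.104 CPM in siControl replicate 1, against 0.637 CPM in siControl replicate 2. These floors use 3 counts per library and cover counting error only.

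Psmb8 and Psmb9 lie 9956 bases apart on chromosome 17, within the major histocompatibility complex, beside Tap1, which encodes a peptide transporter for antigen display. Psmb9 (34181987 to 34187764, minus strand, GRCm38) and Tap1 (34187553 to 34197225, plus strand) overlap by 212 bases at their GENCODE starts. Reads there may be shared. Tap1 stood at 1.71 and 0.39 TPM in siPwp1 and 0.97 and 0.91 TPM in siControl. Its partner Tap2 stayed below 0.25 TPM in every library, and Tapbp, a chaperone of the same step, stood at 0.34 and 0.3 TPM in siPwp1 and 0.52 and 0.37 TPM in siControl. B2m, the light chain of class I molecules, stood at 105 and 107 TPM in siPwp1 and 95.3 and 92.7 TPM in siControl. Of the regulators that induce immune subunits, Irf1 stood at 0.41 and 0.54 TPM in siPwp1 and at 0.02 and 0 TPM in siControl. Irf1 did not pass, with an unadjusted p = 0.017 and an adjusted p = 0.9998 by edgeR. Nlrc5, another of these regulators, stood at 0.01 and 0.02 TPM in siPwp1 and at 0.01 and 0.02 TPM in siControl.

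The 8 markers of blood and immune cells summed to 212 and 225 TPM in the siPwp1 libraries, against 85.7 and 178 TPM in the siControl libraries. Of these, 5 averaged above 1 TPM, led by Hba-a2 and Cd74, while Ptprc, which marks white blood cells, did not exceed 0.07 TPM and Hbb-bs was at 0. The library with the lowest sum, siControl replicate 1, had the highest Psmb9 and Psmb10. In the other libraries Psmb9 was higher where the sum was higher, but Psmb10 was not. In siPwp1, Psmb10 stood at 21.3 TPM beside the sum of 212 TPM and 19.9 TPM beside 225 TPM. The part of such cells in the immune subunit levels was not tested.

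Promoter sequences are shown for Psmb5 and Psmb6 beside their immune counterparts, because each constitutive gene shares its place in the ring with the immune one while its level is far higher. The 250 bases before each RefSeq start on GRCm38.p6 are written 5′ to 3′ on the gene's own strand, with motif letters in capitals. These starts differ from the GENCODE starts behind the gene positions. The Psmb8 and Psmb9 stretches lie inside the GENCODE genes, which start at 34197721 and 34187764. Bases before those GENCODE starts were not searched. The motifs searched on both strands were TGACNNNGC, the core of the element bound by Nfe2l1, a known activator of proteasome genes, and CCAAT. A motif on the other strand appears as its reverse complement. Psmb5 is at chr14:54617996-54618245 (minus strand), Psmb6 at chr11:70525107-70525356 (plus), Psmb8 at chr17:34197945-34198194 (plus) and Psmb9 at chr17:34187331-34187580 (minus).
Psmb5: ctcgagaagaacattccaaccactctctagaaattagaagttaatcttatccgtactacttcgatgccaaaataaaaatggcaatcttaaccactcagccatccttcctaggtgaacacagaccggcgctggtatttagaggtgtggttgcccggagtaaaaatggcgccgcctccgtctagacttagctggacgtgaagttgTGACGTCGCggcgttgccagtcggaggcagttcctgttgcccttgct
Psmb6: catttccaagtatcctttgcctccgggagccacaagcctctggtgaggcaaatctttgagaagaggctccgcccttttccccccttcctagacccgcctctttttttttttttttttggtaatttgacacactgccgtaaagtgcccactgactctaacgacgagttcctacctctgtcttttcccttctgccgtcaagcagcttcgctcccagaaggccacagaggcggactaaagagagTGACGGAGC
Psmb8: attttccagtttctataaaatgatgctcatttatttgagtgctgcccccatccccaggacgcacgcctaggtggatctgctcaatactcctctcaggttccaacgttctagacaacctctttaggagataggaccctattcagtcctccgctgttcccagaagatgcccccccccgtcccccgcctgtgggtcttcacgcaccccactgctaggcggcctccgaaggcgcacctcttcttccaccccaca
Psmb9: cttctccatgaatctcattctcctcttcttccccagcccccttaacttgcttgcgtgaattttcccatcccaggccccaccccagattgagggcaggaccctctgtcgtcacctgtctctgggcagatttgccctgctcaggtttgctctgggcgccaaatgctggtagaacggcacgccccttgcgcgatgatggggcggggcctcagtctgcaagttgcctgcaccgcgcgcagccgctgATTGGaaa

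TGACNNNGC occurs once in the Psmb5 stretch, beginning 47 bases before the start, and once in the Psmb6 stretch, ending at its last base. Psmb8 holds neither motif there, and Psmb9 holds CCAAT once, on the other strand. Windows of 300 bases were found for 32 of the 39 members. Psmb7 had none, and its pair with Psmb10 is not shown. Of the 34 windows of these genes, 5 (14.7%) held TGACNNNGC, those of Psmb5, Psmb6, Psmc6, Psmd12 and Psmd9, against 12.4% of all 32851 promoter windows. CCAAT occurred in 13 windows (38.2%), against 37.4% of all windows. By gene, CCAAT was held by 13 of 32 members (40.6%), against 41.1% of all genes: 5 of 7 in the alpha ring, 1 of 4 in the beta ring, 2 of 4 immune and thymus genes, 2 of 5 ATPase, 2 of 9 non-ATPase and 1 of 3 assembly genes. These are matches of letters, not binding sites.

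Psmb11, the thymus version of Psmb5, and Psma8, the germ-line version of Psma7, were far lower than the genes they replace. Psmb11 had 46 and 24 counts in siPwp1, or 0.23 and 0.21 TPM, against 11 and 13 counts in siControl, or 0.09 and 0.08 TPM. Both siPwp1 libraries lay above both siControl libraries, but the log2 fold change of 1.33 had an SE of 1.09 and an interval of -1.26 to 3.92. By its GENCODE start, Psmb11 lies 3410 bases from Psmb5 on chromosome 14, in the opposite direction. Its share of the TPM of Psmb5 and Psmb11 together was 0.0385% and 0.0363% in siPwp1, against 0.0159% and 0.0154% in siControl. Psma8 stood at 2.89 and 2.06 TPM in siPwp1 and 2.29 and 1.49 TPM in siControl, with overlapping groups (log2 fold change 0.37, SE 0.58). In the list of sperm and spermatocyte markers, Sycp3 alone averaged above 1 TPM. It stood at 366 and 492 TPM in siPwp1 and 323 and 402 TPM in siControl. Odf1 stood at 0.52 and 0.08 TPM in siPwp1 and 1.05 and 0 TPM in siControl. The protamine and transition protein genes Prm1, Prm2, Tnp1 and Tnp2 ranged from 0 to 1.18 TPM in siPwp1 and 0 to 1.82 TPM in siControl. Whether such cells were present, and their part in the Psma8 level, was not tested.

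The ATPase genes Psmc1 to Psmc6, whose products form the unfolding ring of the cap, averaged 456 ± 10.2 TPM per gene in siPwp1 and 468 ± 49.7 TPM in siControl (SD, n = 2 each). Their median log2 fold change was -0.01, from -0.25 to 0.06. Psmc6 had the largest change, at 614 and 562 TPM in siPwp1 against 719.9 and 659 TPM in siControl. Both siPwp1 libraries lay below for Psmc6 (log2 fold change -0.25, SE 0.227, interval -0.79 to 0.29). Psmc5 stood at 502 and 487 TPM in siPwp1, between the siControl values of 389.5 and 580.5 TPM, and its log2 fold change was 0.02. Psmc1 stood at 609 and 643 TPM in siPwp1, within the siControl range of 538 to 653 TPM, and Psmc2 and Psmc4 likewise lay within theirs. Psmc3 was the lowest ATPase gene in every library, at 147 and 105 TPM in siPwp1 and 128 and 124 TPM in siControl, although the ring holds each ATPase in equal number. Exons of Psmc3 overlap those of Slc39a13 on the other strand.

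Non-ATPase subunits of the cap averaged 296 ± 22.4 TPM per gene in siPwp1 and 297 ± 45.7 TPM in siControl (SD, n = 2 each), over 11 genes. The median log2 fold change was -0.09, from -0.37 to 0.35, and this class held both the lowest and the highest change among the constitutive members. Psmd7 encodes the partner of the deubiquitinase in the lid. It lies at 107580381 to 107588464 on chromosome 8 (minus strand, GRCm38) and stood at 545 and 689.5 TPM in siPwp1, against 363 and 600.04 TPM in siControl (log2 fold change 0.35, SE 0.28, interval -0.32 to 1.02). Replicate 2 was the higher library in both groups, the groups overlapped, and siControl replicate 1 was the lowest library. Without siControl replicate 2, Psmd7 was the 1 member at an unadjusted p under 0.05, against 9.68% of all genes, with a log2 fold change of 0.69 and an adjusted p = 0.503 by edgeR. That fit assumes that the lone siControl library varies like the siPwp1 libraries. Psmd14, the deubiquitinase itself, stood at 417 and 357 TPM in siPwp1 and 369 and 422 TPM in siControl, a log2 fold change of -0.04.

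Psmd3, a structural subunit of the lid, was the lowest of this class in every library, at 47.5 and 38.6 TPM in siPwp1 and 60.3 and 49.2 TPM in siControl. It had the smallest unadjusted p of all members, 0.237 by edgeR's quasi-likelihood test, with a log2 fold change of -0.37 (SE 0.282). In TPM the siPwp1 libraries lay below both siControl libraries, while in CPM they overlapped. Exons of Psmd3 overlap those of Gm12356 on the other strand. Psmd13, also of the lid, was the constitutive member with both siPwp1 libraries above in CPM as well as TPM, at 91.5 and 81.1 TPM in siPwp1 and 68.2 and 77.3 TPM in siControl (log2 fold change 0.23, SE 0.248). Its exons overlap those of Sirt3 on the other strand. Psmd6 stood at 352 and 394 TPM in siPwp1, below 428 and 439.6 TPM in siControl (log2 fold change -0.24, SE 0.223).

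Psmd8, a lid subunit, had both siPwp1 libraries below in CPM but not in TPM, where it stood at 387.2 and 457.3 TPM in siPwp1 and 456.5 and 521 TPM in siControl. The large scaffolds Psmd1 and Psmd2 were among the lower genes of the cap. Psmd1 stood at 102 and 118 TPM in siPwp1 and 117 and 118 TPM in siControl, and Psmd2 at 77.8 and 72.6 TPM in siPwp1 and 67.4 and 92.2 TPM in siControl. The ubiquitin receptor gene Psmd4 stood at 335 and 369.9 TPM in siPwp1, against 281 and 366 TPM in siControl, with overlapping groups. The lid genes Psmd11 and Psmd12 had log2 fold changes of -0.03 and -0.09.

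**Figure D3:**
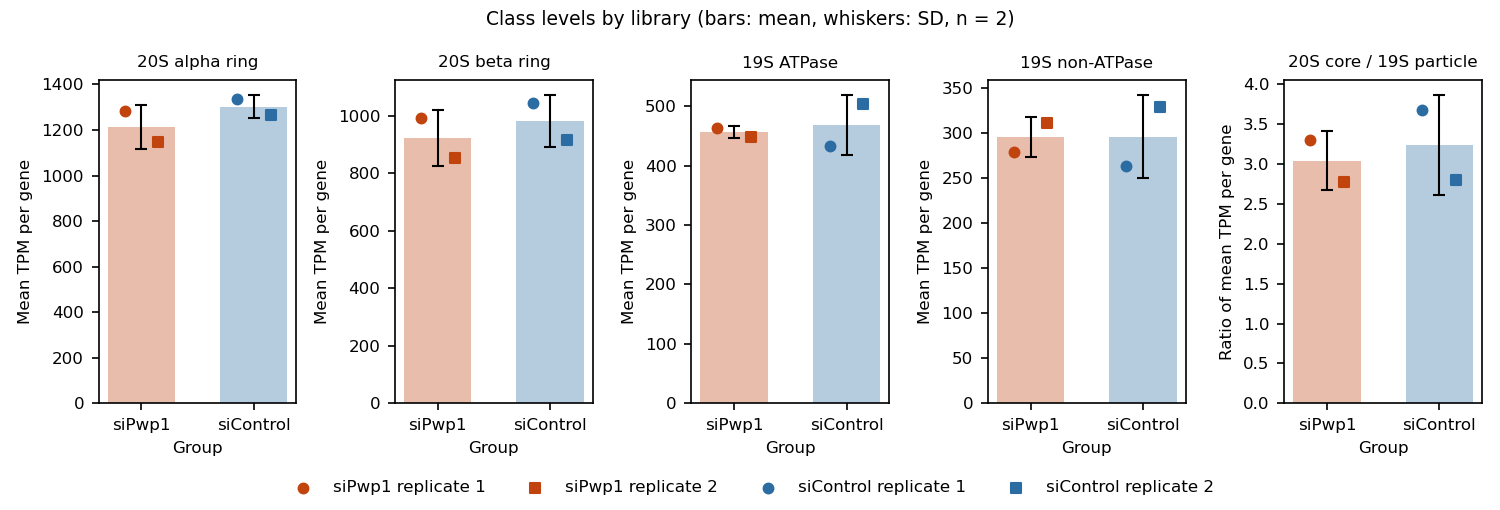
Mean TPM per gene in 4 classes and the ratio of core to cap (linear axes from 0), by library, with the group mean and SD (n = 2). The groups overlap in every panel, and replicate 1 has the higher ratio in both groups.

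Psmd5, Psmd9 and Psmd10 encode chaperones that help assemble the ATPase ring and leave the finished particle. Summed, they stood at 160.03 and 149 TPM in siPwp1, below 166 and 174 TPM in siControl. Psmd5 stood at 77.7 and 89.5 TPM in siPwp1 and 101 and 96.3 TPM in siControl (log2 fold change -0.26, SE 0.241). Psmd9 was lower in level, at 15.9 and 13.6 TPM in siPwp1 and 14.02 and 12.02 TPM in siControl. Psmd10, also called gankyrin, stood at 66.5 and 46.1 TPM in siPwp1 and 50.7 and 66.2 TPM in siControl. Its replicates thus went opposite ways in the 2 groups.

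Core genes stood about 3 times higher than cap genes with a Psmc or Psmd symbol in TPM. This ratio varied more between replicates than between groups. The cap subunit genes Shfm1 and Adrm1 lie outside the symbol rule and are not in it. Shfm1 stood above every core gene, at 2891 and 2466 TPM in siPwp1 and 2638 and 2488 TPM in siControl, so including it would lower the ratio. Adrm1 stood at 246 and 253 TPM in siPwp1 and 147 and 277 TPM in siControl. The mean core gene exceeded the mean cap gene 3.30-fold and 2.78-fold in siPwp1, against 3.68-fold and 2.80-fold in siControl. Replicate 2 was above replicate 1 for 0 of 7 alpha genes in siPwp1 and 1 of 7 in siControl, and likewise for 0 and 1 of 7 beta genes. For the non-ATPase genes the counts were 6 of 11 in siPwp1 and 8 of 11 in siControl, and for the ATPase genes 1 of 6 and 4 of 6. Over all 13585 genes replicate 2 was above for 6652 in siPwp1 and 6382 in siControl. Nothing in the labels says that a replicate number marks a shared batch.

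Summed over the core, the level was 15915 and 13990.4 TPM in siPwp1, against 16668 and 15287 TPM in siControl, and the groups overlapped. For the cap genes with a Psmc or Psmd symbol the sums were 5857 and 6119 TPM in siPwp1, between 5505 and 6639 TPM in siControl. Over all 39 members, the siPwp1 sums of 21962 and 20287 TPM both lay below the siControl sums of 22380 and 22124 TPM. The ratio of the group means was 0.949, and siPwp1 replicate 2 was the lowest library.

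**Figure D4:**
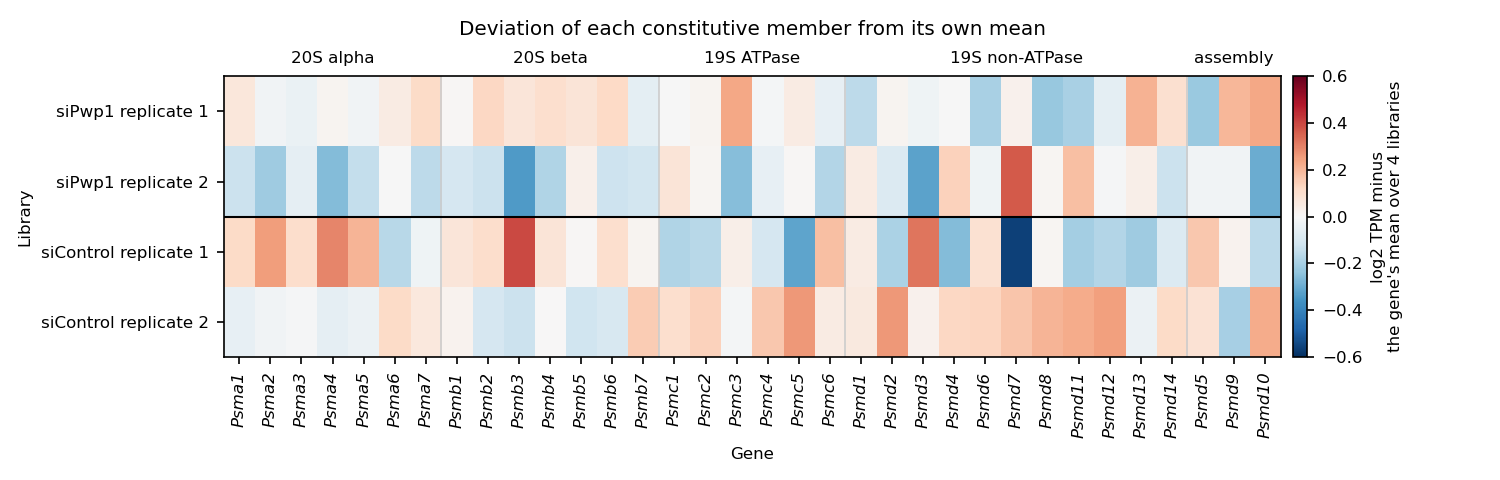
Log2 TPM of each constitutive member in each library minus its own mean over the 4 libraries (colour, from -0.6 to 0.6), with siPwp1 above the line and siControl below it. The strongest deviation is Psmd7 in siControl replicate 1, at -0.56, and every library has genes above and below their mean.

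Of 38 other genes of the pathway, 37 were listed and tested, and edgeR called 0 of them, with 0 at an unadjusted p under 0.05. Their median log2 fold change was -0.14, against -0.001 over all genes. In CPM, both siPwp1 libraries lay below for 9 of these 37 genes and above for 2 of 37, beside 14.1% and 14.7% of all genes. Among the chaperones that build the core, the partners Psmg1 and Psmg2 both lay below, as did Pomp, and the partners Psmg3 and Psmg4 both above. Psmg2 stood at 254 and 226 TPM in siPwp1, against 360.2 and 297 TPM in siControl (log2 fold change -0.48, SE 0.259, unadjusted p = 0.107 by edgeR, adjusted p = 0.9998). Psmg4 stood at 98.3 and 88.1 TPM in siPwp1, against 65.1 and 75.2 TPM in siControl (log2 fold change 0.37, SE 0.315), and Psmg3 had a log2 fold change of 0.29 (SE 0.264). Pomp, which matures the beta subunits, stood at 1058 and 1045 TPM in siPwp1 and 1099.6 and 1112 TPM in siControl.

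The smallest p in this list belonged to Ubqln4, which shuttles ubiquitinated proteins to the proteasome, at 2.22 and 2.45 TPM in siPwp1 and 4.19 and 3.64 TPM in siControl (log2 fold change -0.77, SE 0.387, unadjusted p = 0.089 by edgeR, adjusted p = 0.9998). Rad23b, another shuttle gene, stood at 20.02 and 16.7 TPM in siPwp1 and 32.9 and 20.8 TPM in siControl. Psme4, which encodes an activator that opens the core, stood at 19.7 and 26.5 TPM in siPwp1 and 19.6 and 20.5 TPM in siControl. Nfe2l1, chosen here after its values were seen because its motif was searched, stood at 3.61 and 3 TPM in siPwp1 and 5.31 and 4.73 TPM in siControl. It did not pass (log2 fold change -0.55, interval -1.40 to 0.31).

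The members are spread over 16 chromosomes, with at most 6 on any chromosome (chromosome 11), and the closest neighbours after Psmb5 with Psmb11 and Psmb9 with Psmb8 were Psmb4 and Psmd4, 145732 bases apart. Exons of 10 members overlap a gene on the other strand. The annotation names 4 pseudogenes of Psmb5, Psmb6 and Psmb7, of which the files list 0, so how their reads were assigned is uncertain.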

How the data were processed

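The deposited files give, per gene and library, RSEM expected counts without normalization, per the file headers. TPM and FPKM, which the authors' RSEM run scaled for length and library size, stand beside them in the deposited files. The submitters' processing notes name STAR 2.7.10, RSEM 1.3.3 and mm10. The sources used here name no annotation release, trimming or strand setting.

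Expected counts were rounded and tested with edgeR 4.0.16 (R 4.3.3): filterByExpr with a minimum count of 10, TMM scaling, group as the single term, quasi-likelihood test, two-sided, Benjamini-Hochberg over 13585 genes, threshold 0.05. CPM are TMM-scaled. The SE is the log2 fold change divided by the square root of the F statistic, without sign, and 95% intervals use the test's degrees of freedom. Alternatives used DESeq2 1.42.0 and limma 3.58.1 on log2(TPM + 1). Positions are from GENCODE M21 (GRCm38, the assembly of mm10).

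Members and lists were chosen with earlier results of these data known. Values per library were given for the active-site and immune subunits, Psma8, the highest and lowest member of each class and the 5 members per direction with the smallest unadjusted p, with others added for their roles, and for up to 3 pathway genes per direction. With 2 libraries on each side, the smallest p an exact two-sided permutation test allows is 0.333. A gene of the antigen processing list is not reported here.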

Additional observations from a re-analysis of the deposited data

How the results depend on the processing

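Members called by adjusted p stayed at 0 under every alternative run: no filter, a stricter filter of 5 CPM in 2 libraries, DESeq2 size factors, the DESeq2 Wald test, the replicate block, each library left out, a threshold of 0.1, and limma on log2(TPM + 1). All genes called numbered 99 higher and 7 lower with no filter, 42 and 2 with DESeq2, 71 and 9 with the replicate block, and 5 to 130 higher and 1 to 18 lower with a library left out, against 0 and 0. The cause was not tested. With the replicate block, 1 member had an unadjusted p under 0.05, Psmd7 (log2 fold change 0.37, unadjusted p = 0.0306 and adjusted p = 0.459 by edgeR), against 9.48% of all genes. Psmd7 was also the 1 member without siControl replicate 2 (0 to 1 over the libraries left out), against 9.68% of all genes. Replicate 2 minus replicate 1 correlated at 0.317 across genes between the groups, but with 2 pairs the libraries share only a number.

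Of the 37 members in the limma fit, 2 lay higher and 8 lower in TPM without overlap, against 12.7% and 14.7% of all genes there. With a library left out, fewer libraries have to agree. Then 4 to 10 of the 38 members lay higher and 7 to 21 lower, against 29.3% to 36.1% and 26.9% to 36.5% of all genes. The 21 lower came without siPwp1 replicate 1, where 4 were higher, against 33.1% and 33.7% of all genes. Each such fit leaves 1 library alone in its group and takes its spread from the remaining libraries of the other. Leaving out 1 library at a time moved the median log2 fold change over -0.18 to 0.016 for all members, -0.11 to 0.05 for the ATPase genes, -0.19 to 0.21 for the assembly factors, -0.21 to 0.070 for the beta ring, -0.15 to 0.069 for the non-ATPase genes and -0.50 to 1.16 for the immune and thymus genes, the log2 ratio of the summed cap over -0.15 to 0.12, and the difference in immune share over -0.36 to 0.15 percentage points. These signs rest on single libraries. The alpha ring median stayed negative, over -0.23 to -0.02, as did the log2 ratio of the summed core, over -0.19 to -0.006. Without siPwp1 replicate 2 the beta ring median was 0.070, and without siControl replicate 1 it was 0.05, where the immune and thymus median was 1.16. Without siControl replicate 2 the non-ATPase median was 0.069 and the cap ratio 0.12. Of Pwp1 and the 10 members taken as the 5 per direction with the smallest p, 0 changed direction under any alternative that tested them. The members were picked by p in the main fit of these data, which favours a steady direction, so this does not measure robustness. With 2 libraries per group, changes within the intervals given cannot be seen. Psmb8 and Psmb11 had at most 46 counts in a library, while the wide interval of Psmb9 goes with siControl libraries of 5.80 and 1.37 CPM.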
